A study of Mus musculus with 2 samples.

Results

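The transcripts described here come from 10 mouse genes that decide how pyruvate enters mitochondrial metabolism, measured by long-read RNA sequencing of adrenal gland. They are the lactate dehydrogenase genes Ldha and Ldhb, the carrier genes Mpc1 and Mpc2, the pyruvate dehydrogenase complex genes Pdha1, Pdhb, Dlat, Dld and Pdhx, and the pyruvate carboxylase gene Pcx. Members were taken by gene name from the transcript tables of both libraries, 10 of the 18580 genes with reads. The set was proposed with values of these libraries known, and the main Mpc1 chain was chosen by its read counts, which are therefore given as a description without a test. They held 197 of 107755 transcript models in replicate 1 and 244 of 137106 in replicate 2, with 6787 and 7592 reads.

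Both libraries were made from total RNA of adrenal gland of male B6CASTF1/J mice aged 10 days, an F1 hybrid of a C57BL/6 and a castaneus parent, with spike-in RNAs added. Replicate 2 is labelled as starting from 1 µg, and replicate 1 carries no amount. There was 1 group with 2 replicates and no treatment or mutant. The animal numbers in the labels conflict for replicate 2 and a single donor is listed for both, so separate animals cannot be assumed. All p-values therefore measure only the difference between the reads of these 2 libraries, which may be technical.

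Replicate 1 held 971827 reads and replicate 2 held 1407511, of which 927914 and 1303420 lay on annotated genes. Levels are given as CPM, the reads of a gene per 1000000 reads on annotated genes, and a count of 0 allows up to 3.23 and 2.30 CPM. Intervals are exact at 95% and cover counting error only. Markers of the labelled tissue were present: the 7 steroidogenic cortex genes summed to 32207 and 20982 CPM and the 7 chromaffin medulla genes to 11436 and 6082 CPM, and all 14 had reads in both libraries. In replicate 2, 6 of the 7 cortex and 4 of the 7 medulla genes were called lower, beside 22.2% of all genes. Against genes of like length, a comparison described below, Hsd3b1, Cyp21a1, Cyp11b1, Th, Dbh, Chga and Chgb stayed lower. Star and Nr5a1 were then not called, at log2 ratios of -0.07 and 0.19, and Cyp11a1 and Scarb1 were called higher, at 0.35 and 0.23. Markers of other tissues moved as well, and in replicate 2 the liver genes summed above the cortex genes. The 8 liver genes summed to 9396 and 28170 CPM with 8 of 8 higher in replicate 2, the 6 skeletal muscle genes to 824 and 2521 CPM with 6 of 6 higher, and the 5 erythroid genes to 1329 and 4599 CPM with 4 of 5 higher. Globin transcripts are short. Against genes of like length, Hba-a1 and Hba-a2 stayed higher, at log2 ratios of 0.50 and 0.40. Hbb-bs and Hbb-bt were not called, at 0.15 and 0.36. The 7 brown fat genes summed to 7149 and 8793 CPM, with 3 higher and 4 lower. Of the 5 kidney genes, 4 had 0 reads and Aqp2 had 5 reads in each library. The part of these tissues in the values below was not tested, and fewer cells of a type and less RNA per cell cannot be told apart.

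Pyruvate is made in the cytosol at the end of glycolysis, where lactate dehydrogenase interconverts it with lactate. To be burned or to refill the citric acid cycle it must cross the inner mitochondrial membrane through a carrier built of Mpc1 and Mpc2. Inside, the pyruvate dehydrogenase complex turns it into acetyl-CoA, and pyruvate carboxylase turns it into oxaloacetate. In the adrenal cortex the first and last steps of steroid synthesis take place in mitochondria and need reducing power made there.

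The sequences that carry the main structural finding are the Mpc1 junctions. Mpc1 lies on mm10 at chr17:8282904-8297661 on the plus strand. Each sequence below joins the last 30 bases of the exon that ends at 8283961 to the first 30 bases of the coding exon that starts at 8296535, both coding, read from the GENCODE M21 reference transcripts. Capitals mark what lies between them: a 4-base exon in Mpc1-208 (chr17:8293415-8293418), a different 4-base exon in Mpc1-201 (chr17:8296527-8296530), nothing in the main chain of the reads, and 8 bases (chr17:8296527-8296534) in a second chain. The last sequence is the same stretch of Mpc1-ps, a processed pseudogene at chr12:110858565-110858894 on the minus strand.
Mpc1-208: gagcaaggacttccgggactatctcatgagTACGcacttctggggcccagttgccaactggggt
Mpc1-201: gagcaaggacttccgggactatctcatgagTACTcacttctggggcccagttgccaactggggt
main chain: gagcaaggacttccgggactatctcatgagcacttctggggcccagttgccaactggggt
second chain: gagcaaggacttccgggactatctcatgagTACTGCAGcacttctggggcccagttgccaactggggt
Mpc1-ps: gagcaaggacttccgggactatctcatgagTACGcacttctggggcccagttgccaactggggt

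Nearly all Mpc1 reads were placed on a model that no annotated transcript matches. In replicate 1 it held 252 of 267 Mpc1 reads, or 94.4% (Clopper-Pearson 90.9% to 96.8%), and in replicate 2 it held 456 of 475, or 96.0% (93.8% to 97.6%). Both libraries thus put the same chain first and their intervals overlap. Annotated Mpc1 transcripts held 1 and 4 reads. The chain is of class NIC, which joins splice sites that are each annotated in a way that no listed transcript does. Its 4 exons span 8283762-8283961, 8296535-8296631, 8296824-8296956 and 8297138-8297657, and its length is 950 bases. It starts where Mpc1-208, of 958 bases, starts and ends where Mpc1-201 ends. Its introns equal those of either transcript with the 4-base exon of that transcript left out. No Mpc1 read in either library was placed on a model with the 4-base exon of Mpc1-208, and Mpc1-201 held 0 reads in both. The intron from 8283962 to 8296534, which runs over the 4-base exons of both transcripts, was carried by 255 and 460 reads. Mpc1-202, in which the exon that starts at the same base as that of Mpc1-208 is 81 bases long, held 1 and 2 reads. The second chain, with exon 8296527-8296631, held 3 and 2 reads.

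Those 4 bases set the reading frame of the reference sequence. From the annotated start codon, Mpc1-208, Mpc1-201 and Mpc1-ps each read through 109 codons before a stop, while the main chain joined from the same reference reads through 42 and the second chain through 43. The tables give the structure of each model and not the bases of the reads, so whether the sequenced molecules lacked the 4 bases was not tested.

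**Figure D1:**
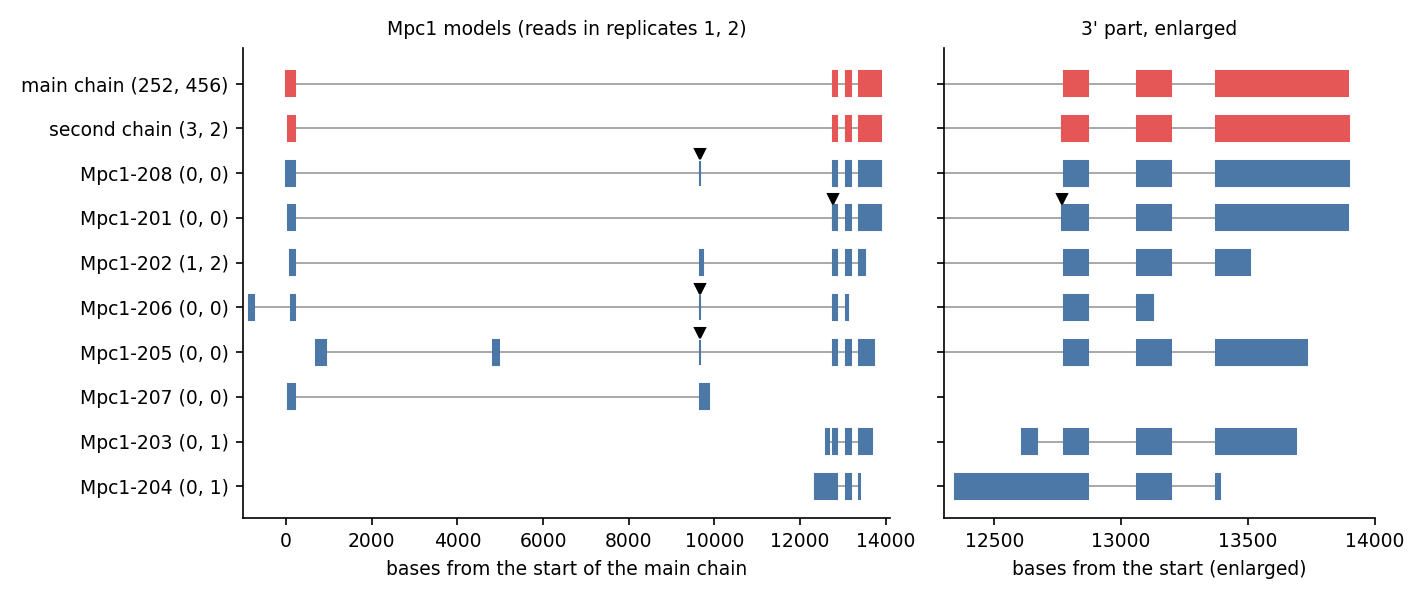
Exons (boxes) and introns (lines) of the 8 annotated Mpc1 transcripts (blue) and the 2 leading unannotated chains (red), to scale in bases from the start of the main chain, with the 3′ part enlarged on the right; triangles mark exons of 4 bases. The main chain (252 and 456 reads) has no box under the triangle of Mpc1-208, which held 0 reads in both libraries.

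The same pattern was seen at every other exon of 10 bases or fewer that had enough reads. For each internal exon of an annotated transcript, reads on its exact chain were set against reads on the chain that lacks only that exon, where the shorter chain is not annotated and 20 or more reads lay on both together. Of 9 such exons of 10 bases or fewer, in 7 genes, 9 had 0 reads with the exon. Beside the 2 exons of Mpc1 these were single exons of Itih3 (109 and 357 reads without a 3-base exon), Map4k5 (22 and 11 without a 3-base exon), Phb2 (574 and 566 without a 6-base exon), Pitpnc1 (10 and 10 without an 8-base exon) and Tnni2 (3 and 90 without a 7-base exon), and 2 exons of 5 bases in Sept7 (168 and 149 without them). The 2 Mpc1 exons were scored with the same main-chain reads, and the 2 Sept7 exons had equal counts. The 9 exons are therefore not 9 separate observations. M21 holds 512 transcripts with an internal exon of 10 bases or fewer, and 0 reads in either library were placed on an annotated one. Over all classes, 4 and 9 reads lay on models with an exon that short.

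The pattern reached up to 15 bases and was rare above 20. More than 50% of reads lacked the exon at 4 of 4 exons of 11 to 15 bases, at 3 of 19 exons of 16 to 20 bases and at 2 of 254 exons of 21 to 30 bases. At 51 to 100 bases it was 32 of 16316 exons, or 0.196%. Across the other 9 members, 83 internal exons of 36 bases or more could be read in this way. The share without the exon was at most 1.35%, in Pdhx. Among the exons read in this way, Mpc1 was the only member with any under 36 bases. Mpc1 also had a longer exon that most reads lacked, of 81 bases at chr17:8293415-8293495. In replicates 1 and 2, 1 and 2 reads held it and 252 and 456 lacked it, or 99.6% without it over both. The 81-base exon starts at the same base as a 4-base exon of Mpc1. The reads without it are the main-chain reads, which also lack that 4-base exon. Its share is therefore not a separate observation, and whether exon length bears on it was not tested.

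**Figure D2:**
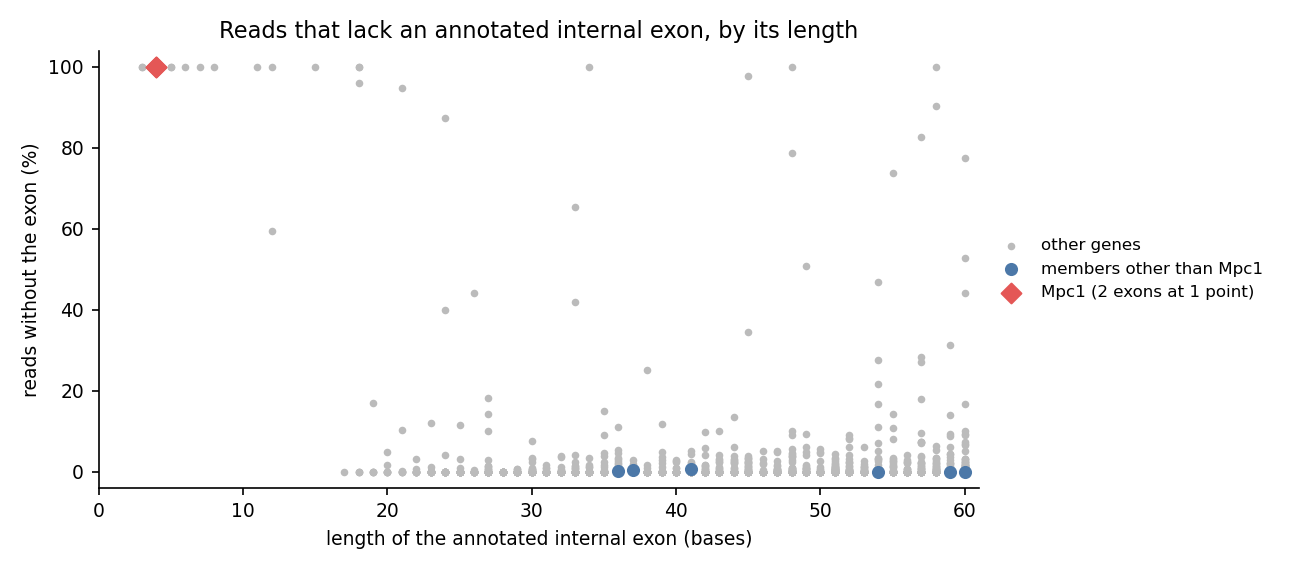
Share of reads that lack an annotated internal exon (%) against the length of that exon (bases) for exons up to 60 bases, both libraries summed; each point is 1 exon. The 2 exons of Mpc1 with 4 bases (red) lie at 100% with every other exon of 10 bases or fewer, and the other members' exons (blue) lie at 1.35% or below.

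Mpc1-ps also bears on how much Mpc1 the tissue holds. Over its 330 bases it matches the Mpc1-208 coding sequence at 329, and the difference is G41A, counted from the first base of the start codon with the Mpc1 base first. It holds the 4 bases of the small exon within its single exon. Reads assigned to Mpc1-ps numbered 218 and 351, or 235 and 269 CPM, which is 44.9% and 42.5% of the reads of both genes together. By reads it was 11th of 9941 annotated processed pseudogenes, of which 16 had 100 or more reads in both libraries. It was looked at after its reads were seen. Zfp839, on the opposite strand at the same place, had 22 and 17 reads. Which of the 2 loci these reads came from cannot be told apart from the tables. With them in the denominator the main Mpc1 chain held 52.0% and 55.2%. The other members' 17 copies with 90% identity or more over 200 bases, 13 of them copies of Ldha, had 0 and 1 reads in all.

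By level, Ldha led the set and Pdhx closed it. A long read counts 1 cDNA molecule, so CPM was not divided by length in the tests. Between genes the levels are given per 1000 bases of the most-read model, a division that counting molecules does not call for. The order in plain CPM is therefore given as well. On that scale Ldha had 1396 ± 396 CPM per 1000 bases (mean ± SD, n = 2), Ldhb 573 ± 69.2, Mpc2 361 ± 145, Mpc1 343 ± 57.1, Dld 272 ± 39.9 and Pdhb 261 ± 45.3. Pdha1 had 202 ± 13.5 CPM per 1000 bases, Dlat 150.3 ± 82.1, Pcx 102 ± 15.1 and Pdhx 88.2 ± 24.3. Ldha lay above Ldhb in both libraries without overlap, and Ldhb above Mpc2. Of the further neighbours, Mpc2 and Mpc1, Dld and Pdhb, Pdha1 and Dlat, Dlat and Pcx, and Pcx and Pdhx overlapped between libraries, while Mpc1 and Dld, and Pdhb and Pdha1, did not. The place of Mpc1 depends on its copy: with the reads of Mpc1-ps added it had 609 ± 82.6 CPM per 1000 bases, overlapping with Ldhb on this scale. The order also depends on the division by length. By mean CPM without it, Mpc2 (370) and Mpc1 (326) lay below Dld (692), Dlat (606), Pdha1 (574), Pcx (421) and Pdhb (394). In plain CPM the neighbours from Pcx to Mpc1 overlapped between libraries.

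With 1 group, the comparison the design allows is between its replicates. Fisher's exact test (two-sided, reads of a gene against the rest of the library, Benjamini-Hochberg adjusted over 11650 genes, threshold 0.05) called 35.1% of all genes, 13.0% higher and 22.2% lower in replicate 2. Of the 10 members, 3 were called higher, 6 lower and 1 was not called. Each member had more than 100 reads over both libraries. Among the 4231 genes with a minimum of 100 reads, adjusted over those genes, 62.3% were called. The median log2 ratio of the 10 members was -0.27, beside -0.25 over all genes. This median spans members called in opposite directions. TMM scaling, which centres the libraries on most genes, moved the median of all genes by 0.26 and the higher share of all calls from 36.9% to 59.9%. Under it 28.4% of all genes were called (17.0% higher, 11.4% lower), and 5 members (3 higher, 2 lower).

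Transcript length moved with the library difference. Genes with transcripts up to 1434 bases had a median log2 ratio of 0.45, and genes between 3007 and 4176 bases one of -0.49. The ratio was therefore also set against that of genes of like length, which left 22.9% of all genes called (13.1% higher, 9.85% lower), and 6 members (3 higher, 3 lower). Over the scalings Ldha and Dlat were called lower and Mpc2 and Pcx higher each time, while the other members changed their call or their sign.

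**Figure D3:**
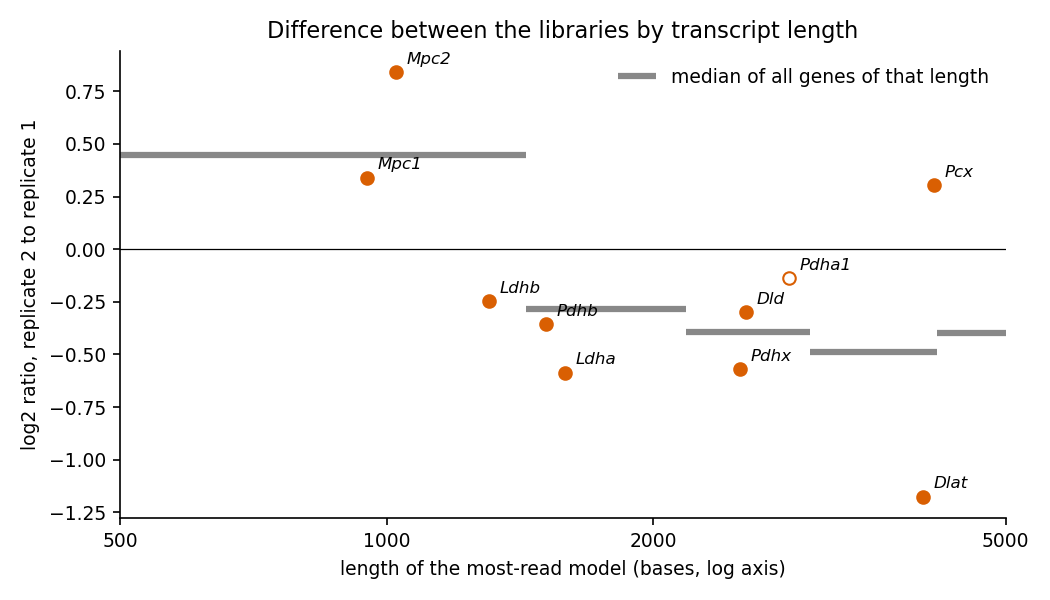
log2 ratio of replicate 2 to replicate 1 of each member against the length of its most-read model (bases, log axis); filled points were called by Fisher's exact test, and grey bars are medians of all genes in 5 length classes of their most-read annotated transcript. Mpc2 at 0.84 and Pcx at 0.30 lie above the genes of their length and Dlat at -1.18 lies below.

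The lactate dehydrogenase subunits differed in how firmly their levels held. Ldha, on chr7:46841475-46855627, encodes the subunit that prevails in muscle-type enzyme, and had 2661 CPM (2557 to 2768) in replicate 1 and 1772 CPM (1701 to 1846) in replicate 2. It was lower in replicate 2 by 0.59 on the log2 scale in Fisher's exact test (log2 ratio -0.59, adjusted p = 7.53e-43), by -0.32 with TMM scaling and by -0.42 against genes of like length. Ldhb, on chr6:142490249-142507957, encodes the heart-type subunit, with 810 CPM (754 to 870) and 683 CPM (639 to 729). Its log2 ratio was -0.25 (Fisher's exact test, adjusted p = 0.00287), and the sign turned to 0.016 with TMM scaling (adjusted p = 0.926).

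**Figure D4:**
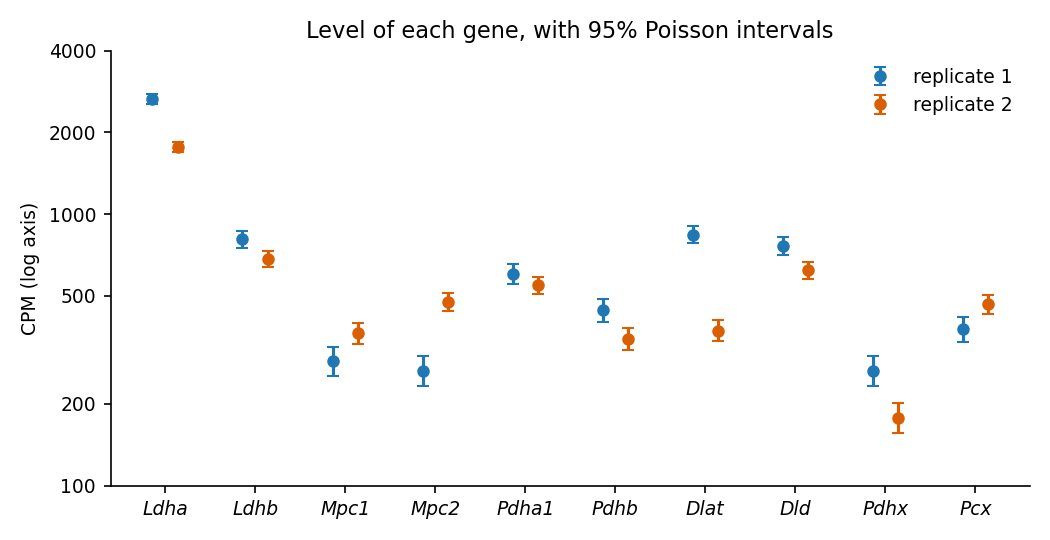
CPM of each member (log axis) in replicate 1 (blue) and replicate 2 (orange), with exact 95% Poisson intervals. Ldha is highest in both libraries, at 2661 and 1772 CPM, and Dlat and Mpc2 have the widest gaps between the libraries, in opposite directions.

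The carrier subunits were both called higher in replicate 2 without further scaling and with TMM scaling, where Mpc1 had a log2 ratio of 0.60 and Mpc2 1.11. Mpc2, on chr1:165460637-165481214, had 265 CPM (233 to 300.4) and 476 CPM (439 to 515), a log2 ratio of 0.84 (Fisher's exact test, adjusted p = 2.69e-14), and stayed higher against genes of like length at 0.73. Mpc1 had 288 CPM (254 to 324) and 364 CPM (332 to 399), a log2 ratio of 0.34 (Fisher's exact test, adjusted p = 0.00809), but turned to -0.36 against genes of the length of its main chain (adjusted p = 0.00911) and to -1.18 against those of the 555-base Mpc1-202. Of the outer membrane channels that pyruvate passes first, Vdac1 was higher, at 125 and 262 CPM, Vdac3 lower, at 426 and 311 CPM, though not with TMM scaling (adjusted p = 0.165), and Vdac2 was not called, at 397 and 371 CPM.

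The pyruvate dehydrogenase complex has an E1 enzyme built of Pdha1 and Pdhb, an E2 core of Dlat, the E3 enzyme Dld and the E3-binding protein Pdhx. Dlat, on chr9:50634633-50659780, had 841 CPM (783 to 902) and 372 CPM (340 to 407). It was the member with the widest gap, with a log2 ratio of -1.18 (Fisher's exact test, adjusted p = 8.46e-45), -0.91 with TMM scaling and -0.68 against genes of like length. The E1 subunits stayed closer. Pdha1, on chrX:160122209-160138413, had 601 CPM (552 to 653) and 547 CPM (508 to 589), whose intervals overlap, and Fisher's exact test gave a log2 ratio of -0.14 with adjusted p = 0.201. Against genes of like length it turned to 0.30 (adjusted p = 0.00231). Pdhb, on chr14:8165996-8173025, had 443 CPM (401 to 488) and 346 CPM (315 to 379), a log2 ratio of -0.36 (Fisher's exact test, adjusted p = 0.00168) that was not called with TMM scaling, at -0.09.

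Dld is shared with other 2-oxoacid dehydrogenase complexes. On chr12:31331277-31351453, it had 764 CPM (709 to 822) and 621 CPM (579 to 665), a log2 ratio of -0.30 (Fisher's exact test, adjusted p = 0.000379) that became 0.087 against genes of like length (adjusted p = 0.467). Pdhx, on chr2:103021075-103073513, had 264 CPM (232 to 299) and 178 CPM (156 to 202), a log2 ratio of -0.57 (Fisher's exact test, adjusted p = 0.000129). With TMM scaling it was not called, at -0.31 (adjusted p = 0.0703).

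Pcx, on chr19:4510472-4621752, had 377 CPM (339 to 419) and 466 CPM (429 to 504), a log2 ratio of 0.30 (Fisher's exact test, adjusted p = 0.00687). The direction depended on which reads were counted. On annotated transcripts alone its log2 ratio was -0.60 (adjusted p = 0.000136), from 227 and 195 reads.

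Mpc1 and Pcx had the lowest shares of reads on annotated transcripts among the 10 members. The share of reads on annotated transcripts, tested in 6344 genes, was called different in 20.3% (19.7% lower and 0.583% higher in replicate 2), and its median over these genes was 83.7% and 75.0%. Among the members 4 of 10 were called lower and 0 higher. In Mpc1 the share was 0.375% and 0.842%, and 2.10% of the genes tested lay below 5% in both libraries. In Mpc2, Ldhb, Pdha1, Dld and Pdhx it lay between 88.4% and 97.2% in both, and Fisher's exact test did not call a difference.

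In Pcx the share on annotated transcripts was 64.9% (59.6% to 69.9%) of 350 reads and 32.1% (28.4% to 36.0%) of 607 reads (Fisher's exact test, adjusted p = 8.77e-21). Unannotated single-exon models, mainly of the last exon, took 19 and 188 Pcx reads, or 5.43% and 31.0%, beside 3.62% and 10.1% over all genes. Models cut short at the 5′ end took 22.6% and 29.3%, beside 6.48% and 8.36% over all genes. Pcx has the longest most-read transcript of the set, 4148 bases in 21 exons. In Dlat, at 4035 bases, the share on annotated transcripts was 94.7% and 85.2%, called lower (Fisher's exact test, adjusted p = 3.56e-07).

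In Ldha the share went from 95.6% (94.7% to 96.4%) to 83.8% (82.2% to 85.2%; Fisher's exact test, adjusted p = 2.94e-41). One truncated model stood out. It holds the last 5 exons of Ldha, begins in the exon that opens at 46850178, and had 11 reads in replicate 1 and 215 in replicate 2. In Pdhb the share went from 93.9% to 88.5% (Fisher's exact test, adjusted p = 0.0322) and was not called over multi-exon models alone (adjusted p = 0.136).

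**Figure D5:**
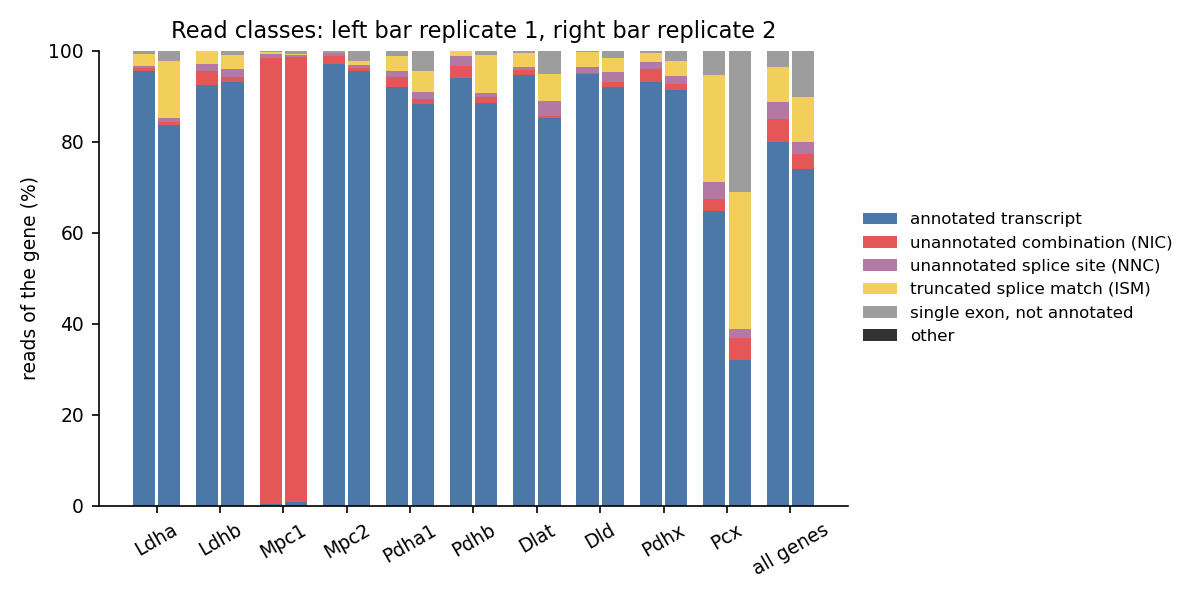
Share of the reads of each member and of all genes (%) by class of transcript model, replicate 1 on the left and replicate 2 on the right of each pair. Mpc1 is almost wholly NIC in both libraries, and annotated Pcx reads drop from 64.9% to 32.1% while single-exon and truncated models grow.

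Few annotated isoforms were in use. M21 lists 63 transcripts of the 10 genes, and 22 had reads. In Ldhb, Pdha1 and Dld a single annotated transcript held all annotated reads. Ldha-202 held 2360 of 2361 and 1935 of 1935 annotated Ldha reads, and Mpc2-201, Pdhb-201, Dlat-201 and Pdhx-201 each held 97.97% or more in both libraries. Of the 3041 genes whose top isoform could be tested, 2.17% were called different between libraries (0.921% higher, 1.25% lower). Of the 6 members tested, Pcx was called and the other 5 were not: Pcx-201 held 218 of 227 annotated reads (96.0%, 92.6% to 98.2%) and 158 of 195 (81.0%, 74.8% to 86.3%; Fisher's exact test, adjusted p = 0.000106).

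Pcx-201 and Pcx-202 differ in their first exons, far apart on chromosome 19. Pcx-201 begins at 4510472 (distal) and Pcx-202 at 4594346 (proximal). Counting every model by the first exon it holds, a split made after the values were seen, distal reads numbered 237 and 174, or 255 and 133 CPM, and proximal reads 13 and 59, or 14.01 and 45.3 CPM. Proximal reads include those with the first exon of Pcx-207, which overlaps that of Pcx-202. Of reads on either side, 5.20% (2.80% to 8.73%) and 25.3% (19.9% to 31.4%) were proximal, and these intervals do not overlap. Neither was held by 100 of 350 reads and 374 of 607. In rodents the proximal Pcx promoter is known for its use in liver and fat. The liver list had 9396 and 28170 CPM, with 8 of 8 genes higher. The fat lists were mixed: of the 4 adipocyte genes, at 2422 and 3163 CPM, 3 were called higher, among them Fabp4, which turned to -0.44 against genes of like length, while 4 of the 7 brown fat genes were lower and their median log2 ratio was -0.60. The part of these tissues in the proximal reads was not tested.

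The 2 Pcx promoters are shown because the libraries differ in the first exons that follow them. Each sequence is the plus strand, 250 bases long, and ends just before the start site listed by RefSeq on GRCm38.p6, at chr19:4510222-4510471 and chr19:4594069-4594318. Capitals mark matches on either strand to 3 motifs. The first is the TATA box, searched as TATAAA. The second is the CCAAT box, searched by those letters. The third is the GC box, searched as GGGCGG. No matches overlap.
distal Pcx promoter: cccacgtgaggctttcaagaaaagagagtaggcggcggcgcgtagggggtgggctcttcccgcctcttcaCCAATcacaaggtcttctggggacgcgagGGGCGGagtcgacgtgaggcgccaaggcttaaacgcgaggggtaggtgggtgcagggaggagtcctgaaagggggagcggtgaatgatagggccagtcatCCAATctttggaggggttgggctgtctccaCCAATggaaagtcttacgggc
proximal Pcx promoter: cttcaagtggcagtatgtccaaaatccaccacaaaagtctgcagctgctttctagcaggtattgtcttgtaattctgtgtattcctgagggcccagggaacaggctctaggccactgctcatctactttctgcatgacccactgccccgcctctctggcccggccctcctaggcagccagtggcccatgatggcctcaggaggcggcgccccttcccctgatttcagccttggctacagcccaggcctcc

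The distal window holds 3 CCAAT boxes, 1 GC box and 16 CpG pairs, more CpG than 74.6% of the 32851 RefSeq promoter windows, whose median is 6. The proximal window holds none of the 3 motifs and 4 CpG pairs. Over all windows of this length, 33.8% hold the CCAAT box, 32.7% the GC box and 12.4% the TATA box. GC content is 60.8% in the distal and 58.0% in the proximal window.

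Beside the main Mpc1 chain, 4 chains of class NIC or NNC had 5 or more reads in both libraries. An Ldha chain of 9 exons adds a 108-base exon at chr7:46847389-46847496, annotated in Ldha-205, and had 8 and 6 reads. An Ldhb chain kept the intron at chr6:142492617-142494099 (13 and 7 reads), and a Pdhb chain kept the intron at chr14:8171531-8172763 (7 and 5 reads).

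One Ldhb chain of class NNC, with an unannotated splice site, had 6 and 9 reads. It ends the second exon 36 bases early, at chr6:142505412-142505447 on the minus strand, and all 36 bases are coding, so 12 codons are left out in frame. The sequence runs from chr6:142505477 into the third exon, with the omitted bases in capitals; they begin with GT, the usual start of an intron.
Ldhb-201: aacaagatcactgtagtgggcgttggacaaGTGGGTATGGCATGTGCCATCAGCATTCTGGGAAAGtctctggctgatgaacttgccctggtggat

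The pathway around these genes was read from a list of 46, of which 42 had reads and 40 were tested. Of these, 2 were called higher (Vdac1 and Pck1), 13 lower and 25 were not called. The share called in either direction lay near the 35.1% of all genes. The share higher was smaller than the 13.0% of all genes, and the share lower was larger than their 22.2%. The median log2 ratio of the list was -0.42, beside -0.25. Against genes of like length 6 were higher and 8 lower. The isozymes Mpc1l, Pdha2, Ldhc and Ldhal6b, known mainly from germ cells or testis, had 0 reads. Pkm, which makes pyruvate in most tissues, had 1411 and 910 CPM and was lower in replicate 2 under every scaling (log2 ratio -0.63, Fisher's exact test, adjusted p = 3.65e-26), and the liver-type Pklr had 2 and 12 reads.

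Of the 7 kinase, phosphatase and regulator genes 1 was called, beside 35.1% of all genes. This was Pdk2, which switches the complex off by phosphorylation: it had 184 and 78 reads, or 198 and 59.8 CPM, a log2 ratio of -1.72 (Fisher's exact test, adjusted p = 2.95e-19). Pdk4, the kinase known to be raised by fasting, had 597 and 525 CPM and was not called, but was called higher against genes of like length, at 0.30 (adjusted p = 0.00196). Pdk1 (44.2 and 42.2 CPM), Pdk3 (21.6 and 12.3 CPM) and the phosphatases Pdp1 (9.70 and 19.2 CPM) and Pdp2 (19.4 and 12.3 CPM) were not called, although Pdp1 was higher against genes of like length, at 1.42 (adjusted p = 0.041).

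The lipoate genes that arm Dlat gave 0 of 4 calls, too few genes to set against the 35.1% of all genes. Lias, which makes lipoate, had 120 and 88.2 CPM. Among the 6 tested genes of complexes that share Dld or lipoate, Ogdh was lower (405 and 177 CPM) and 5 were not called. Of these, Dlst, the E2 partner of Ogdh, had 494 and 432 CPM. It was called higher against genes of like length, at 0.24 (adjusted p = 0.0422). Bckdha was called higher against genes of like length, at 0.46, and with TMM scaling, at 0.39. Gcsh was called higher with TMM scaling, at 0.33, and not against genes of like length. Of the transport genes Bsg, the chaperone of lactate transporters, was lower (2098 and 1486 CPM), as was its relative Emb (71.1 and 33.8 CPM), which was not called against genes of like length (adjusted p = 0.0832), whereas the transporter Slc16a1 was not called (81.9 and 76.0 CPM). Past the entry point, Cs was lower at 1173 and 779 CPM, Mdh1 at 889 and 720 and Mdh2 at 1612 and 1218, although against genes of like length Cs was not called (-0.16, adjusted p = 0.0547) and Mdh1 turned to 0.037. Pck1, which draws on oxaloacetate for glucose synthesis, was higher at 682 and 906 CPM but turned to -0.025 on annotated transcripts alone. The malic enzymes Me1 (398 and 216 CPM) and Me2 (72.2 and 38.4 CPM), which make pyruvate from malate, were lower. The call of Me2 was lost with TMM scaling (adjusted p = 0.0547) and against genes of like length (adjusted p = 0.212).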

How the data were processed

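Per the file headers and the labels, each library has a deposited table of transcript models whose values are counts: whole long reads that the authors assigned to a model, without normalization. The same tables give exon number and spliced length, and the deposited annotations give 1-based mm10 positions (other unit: bases). Models come from GENCODE M21 and TALON per the file headers; the aligner is not given in the sources used here. Counts were summed per gene without spike-ins and unannotated loci. The exact tests (scipy 1.17.1) took genes with a total of at least 10 reads, with 0.5 reads added before log2, and share tests genes with at least 20 reads per library. Scaling alternatives used edgeR 4.0.16, DESeq2 1.42.0 and 20 length bins. A model is the same in both libraries if chromosome, strand and every intron are. Copies were found with blastn 2.17.0. Named by rule are the members, their main isoforms, their NIC or NNC chains with at least 5 reads per library and 46 pathway genes; members and lists were chosen with earlier results of these data known. The counts cover the whole list, of which 1 gene is not reported here. The tests were tested on simulated data. Python 3.11.15, pandas 2.3.3, numpy 2.4.6, matplotlib 3.10.9 and R 4.3.3 were used.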

Additional observations from a re-analysis of the deposited data

How the results depend on the processing

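No paired analysis was possible because only 1 group exists. Of the 10 members 9 were called (3 higher, 6 lower); with TMM factors or DESeq2 size factors 5 were called (2 lower), at 2-fold or more 1 (0 higher, 1 lower), and against like length 3 were lower, also with the length of the most-read multi-exon model of any class, an alternative added after seeing the data. On annotated transcripts alone 1 was higher. Over all genes the share called was 35.1%, 28.4% with TMM or DESeq2, 20.1% at 2-fold or more and 22.9% against like length. It was 22.8% with the length of the multi-exon model, 39.1% on annotated transcripts and 36.9% without Genomic models. Pathway genes called higher went from 2 to 4 with TMM or DESeq2, to 6 against like length (8 lower in place of 13), and to 1 on annotated transcripts or without Genomic models; at 2-fold or more 4 were called (1 higher, 3 lower). Log2 ratios of members and called pathway genes that changed sign were those of Ldhb (TMM 0.0162, DESeq2 0.0085), Mpc1 (like length -1.18, any class -0.36), Pdha1 (TMM 0.13, DESeq2 0.12, like length 0.30, any class 0.27), Dld (0.087 and 0.063 by length), Mdh1 (0.037 by length), and Pcx (-0.60) and Pck1 (-0.025) on annotated transcripts; of the pathway genes named but not called, Slc16a1, Vdac2, Pdk1, Pdk4 and Dlst also turned positive with TMM and by length; the annotated share of Mpc2 changed by 0.135 points over multi-exon models. The cause was not tested.

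The median member level, 496 CPM, was 564 CPM on annotated transcripts and 537 CPM with copies added, and 471 to 522 CPM in single libraries. The Mpc1 chain share, 95.2%, was 53.6% with Mpc1-ps in the denominator, both copy alternatives being added after seeing the data, and 94.4% to 96.0% in single libraries. The annotated share of all member reads was 78.4% to 89.3% and the median top isoform share 98.8% to 99.7%. Mpc1, with 1 and 4 annotated reads, could not enter the isoform test. Depth limits low genes such as Pklr, not called at a log2 ratio of 1.83 (adjusted p = 0.124).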
